A study of Mus musculus with 4 samples.

Results

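The genes described here encode the proteins through which cells release ATP and refill their calcium stores: the pore subunits *Orai1*, *Orai2* and *Orai3*, the store sensors *Stim1* and *Stim2*, the pannexins *Panx1* and *Panx2*, the astrocytic connexins *Gja1* and *Gjb6*, and *Slc17a9*, the vesicular nucleotide transporter. They were chosen by name, as every probe that the array design assigns to 1 of these 10 symbols, which gave 16 of the 39429 probes and 10 of the 30222 gene names on the array. The mRNA came from L4 to L5 spinal slices of male ICR mice, an outbred stock, aged 5 to 6 weeks at the start and taken 7 days after the right sciatic nerve had been partly ligated (PSL). All mice were ligated, and no group was free of nerve injury. The sham+PSL mice had their adrenal glands exposed and kept, and the ADX+PSL mice had them removed and drank 0.9% NaCl. Each operation was sampled at ZT10, late in the light phase that runs from ZT0 to ZT12, when circulating glucocorticoid peaks in sham+PSL mice, and at ZT22, when it is low. With 1 array in each of the 4 conditions there was no replicate, so that no difference between conditions could be tested. The number of mice behind each RNA and the side of the cord were not given in the sources used here.

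Store-operated calcium entry begins when the endoplasmic reticulum runs low on calcium. STIM proteins in its membrane sense the loss and open ORAI channels in the plasma membrane, and the incoming calcium is pumped back into the store or acts as a signal. ATP leaves cells through large channels, such as pannexins, connexin hemichannels and volume-regulated anion channels, or from vesicles loaded by SLC17A9. In the spinal cord extracellular ATP acts on purinergic receptors of microglia, and in mice with nerve injury this signalling lowers the threshold for pain. The study asked which spinal genes follow the daily glucocorticoid rhythm, and it linked the kinase SGK-1 to ORAI1 and pannexin-1 in astrocytes. It proposed that SGK-1 raises calcium entry through ORAI1, which opens pannexin-1, and it found pannexin-1 protein unchanged in astrocytes treated with corticosterone. That link does not need a change in the mRNAs of these channels. The separate question asked here is whether these mRNAs differed between time points or between operations.

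A level is the normalised intensity that the authors deposited, on a linear scale in arbitrary units. It compares 1 probe across arrays and not different probes with each other. A log2 ratio of 2 arrays carries a spot error, which the image software estimates and which was 0.20 for most members. It covers the measurement of the spots, not the differences between mice, slices or hybridizations. Its value was nearly the same for most bright probes, so it is not a spread measured on each probe. For probes printed 10 times on an array, the median SD of the log2 signal between spots was 0.044 to 0.060. A ratio within or beyond the spot error is thus a description and not a test. Of the 16 probes, 15 were well above background on all 4 arrays and represent 9 of the 10 genes. The exception was the probe of *Slc17a9*, whose levels of 16.8 and 16.7 at ZT10 and ZT22 in sham+PSL, and 9.67 and 10.9 in ADX+PSL were not well above background on any array, so no ratio is given for it. Where a gene had several probes, the brightest represents it and the others are given beside it.

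The probes themselves decide how much can be read from them. The last 30 bases of the brighter *Panx2* probe and of the *Stim2* probe are shown because both genes were higher at ZT10 than at ZT22 in both operations. Each probe keeps an open reading frame up to a stop codon in its last bases, given in capitals, and whether this is the frame of the gene was not analysed here.
Panx2 probe A_55_P2058315, bases 31 to 60, probe at chr15:88900248-88900307 (+, mm9): agaacagttgtgagtactgtggagtttTGA
Stim2 probe A_55_P1971220, bases 31 to 60, probe at chr5:54509929-54509988 (+, mm9): aaaagccttttcaagaagaagtctaagTGA
A stretch of 30 bases from each *Orai2* probe is shown because these probes gave different results. Capitals mark the letters that lie in runs of at least 15 bases shared with probes of other genes on the same array, on either strand.
Orai2 probe A_55_P2066543, bases 30 to 59, probe at chr5:136623383-136623442 (-, mm9): tgtGGTTTTTTGTTTGTTTGTTTGTTGAtt
Orai2 probe A_55_P2075385, bases 31 to 60, probe at chr5:136624524-136624583 (-, mm9): gggtggacaagaTGGCTCAGTGGGTAAAgg
The capitals of the first cover a repeat of T and G, and 43 probes of other genes share a run of at least 15 bases with it. Those of the second occur in 2, for *Rad1* and *Susd3*. These counts cover the probes of this array and not all transcripts, so they do not tell which probe is the more specific. The *Panx1*, *Gja1* and *Gjb6* probes and the brighter *Orai1* probe share no run of this length with a probe of another gene.

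None of the 9 measured members differed by 2-fold in any of the 4 comparisons. Over all probes well above background on both arrays, 2.0% passed this limit between ZT10 and ZT22 in sham+PSL, 1.54% in ADX+PSL, 2.10% between the operations at ZT10 and 1.79% at ZT22, so a count of 0 among 9 genes does not set the members apart. The median log2 ratio over the members was -0.03 for ZT10 over ZT22 in sham+PSL, 0.10 in ADX+PSL, -0.05 for ADX+PSL over sham+PSL at ZT10 and -0.08 at ZT22, beside 0.01, 0.00, 0.00 and 0.01 over all probes. In sham+PSL and at ZT22, all 9 members lay within 2 spot errors of no difference. At ZT10, 7 did between the operations, and in ADX+PSL 5 did between the time points. On the brightest probes, the values beyond 2 spot errors all involved the ADX+PSL array at ZT10.

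**Figure D1:**
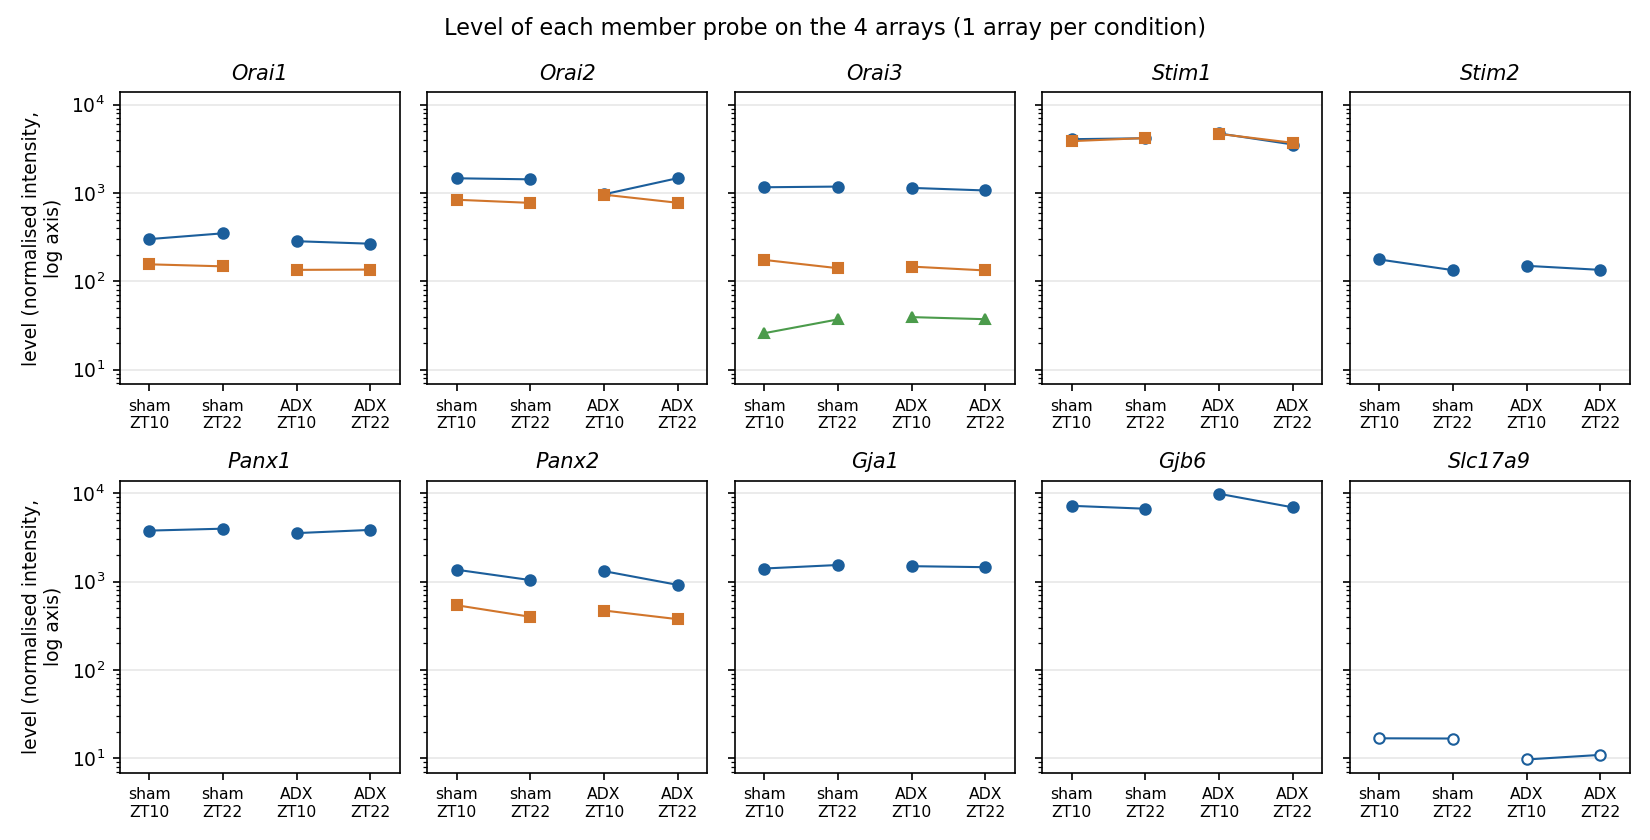
Level of every member probe (normalised intensity, log axis) on the 4 arrays, with 1 panel per gene and 1 symbol and colour per probe. Lines join ZT10 and ZT22 of the same operation (sham, sham+PSL; ADX, ADX+PSL), and open symbols mark the *Slc17a9* probe, at background on every array. Most lines are nearly flat, the *Orai2* probes move in opposite directions in ADX+PSL, and both *Panx2* probes slope down from ZT10 to ZT22 in both operations.

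The ORAI proteins form the calcium pore. The brighter *Orai1* probe (chr5:123479844-123479903, mm9) had levels of 301 and 350 at ZT10 and ZT22 in sham+PSL, and 285 and 267 in ADX+PSL. Its second probe (chr5:123480377-123480436), which starts 473 bases after the end of the first, had levels of 156, 148, 135 and 136 in the same order. On both probes both ADX+PSL arrays were below both sham+PSL arrays. The differences were small: the brighter probe had a log2 ratio of ADX+PSL over sham+PSL of -0.08 at ZT10 and -0.39 ± 0.21 (spot error) at ZT22, and the second probe had -0.21 and -0.12. Between time points the brighter probe had log2 ratios of -0.22 (sham+PSL) and 0.09 (ADX+PSL), and the second probe had 0.07 and -0.01, so neither operation showed a difference between ZT10 and ZT22 that both probes shared beyond the spot error.

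*Orai2* had the widest range of the members, 1.52-fold on its brightest probe, but this rested on that probe. It had levels of 1470 and 1430 at ZT10 and ZT22 in sham+PSL, and 968 and 1475 in ADX+PSL. The ADX+PSL array at ZT10 was thus low and the other 3 arrays lay close together. The log2 ratio was -0.61 ± 0.20 for ZT10 over ZT22 in ADX+PSL and -0.60 ± 0.20 for ADX+PSL over sham+PSL at ZT10. The second *Orai2* probe, 1081 bases away, had levels of 840, 774, 959 and 776 in the same order, with the ADX+PSL array at ZT10 the highest and log2 ratios of 0.31 and 0.19 for the same comparisons. The probes differed by up to 0.91 in log2 ratio, and the mean over both was -0.15 and -0.21. Of the 43 probes of other genes that share a run of bases with the brightest *Orai2* probe, 36 could be compared between the time points in ADX+PSL. Their median log2 ratio was 0.04. For ADX+PSL over sham+PSL at ZT10 the median over 39 of them was 0.15, with values from -1.58 to 1.23. These probes also measure their own genes, and a part of the shared bases in the *Orai2* value was not tested.

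By a limit of 1.5-fold *Orai2* was the 1 member that passed on its brightest probe, downwards, for ZT10 over ZT22 in ADX+PSL and for ADX+PSL over sham+PSL at ZT10. Of all probes 3.24% were lower by this limit in the first of these comparisons and 3.72% in the second, and 1.92% and 3.31% were higher. In sham+PSL, where 2.69% of all probes were higher and 3.80% lower at ZT10 by this limit, and between the operations at ZT22, where 3.10% were higher and 3.21% lower in ADX+PSL, no member passed. With 9 genes, counts of 0 or 1 are near these shares.

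*Orai3* had 3 probes. The brightest (chr7:134918459-134918518, mm9) had levels of 1163 and 1184 at ZT10 and ZT22 in sham+PSL, and 1144 and 1070 in ADX+PSL, a range of 1.11-fold. Both ADX+PSL arrays were below both sham+PSL arrays, by a log2 ratio of -0.02 at ZT10 and -0.15 at ZT22, which is within the spot error of 0.20. The mean over the 3 probes was 0.11 at ZT10, on the other side of 0. The second probe had 175, 141, 147 and 133, where the ADX+PSL array at ZT10 was above the sham+PSL array at ZT22. The dimmest probe had 25.9, 37.1, 39.4 and 37.3 and a log2 ratio of 0.61 ± 0.31 for ADX+PSL over sham+PSL at ZT10, in the opposite direction to the others. On their brightest probes *Orai1* and *Orai3* were the 2 of 9 members for which both ADX+PSL levels lay below both sham+PSL levels, and no member had both above. Over all probes measured on 4 arrays, 16.1% were lower in this sense and 18.9% were higher.

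The STIM proteins sense the calcium store. The *Stim1* probes (chr7:109585312-109585371 and chr7:109585303-109585362, mm9) share 51 bases, so they are repeat measurements of nearly the same site. The first had levels of 4072 and 4174 at ZT10 and ZT22 in sham+PSL, and 4733 and 3546 in ADX+PSL, and the other had 3870, 4199, 4675 and 3704. On both the ADX+PSL arrays were the highest, at ZT10, and the lowest, at ZT22, with the sham+PSL arrays between them. In ADX+PSL the ZT10 level exceeded the ZT22 level by a log2 ratio of 0.42 ± 0.20 on the first and 0.34 ± 0.20 on the other, against -0.04 and -0.12 in sham+PSL, and the probes differed by at most 0.08 in log2 ratio. *Stim2*, which responds to smaller losses of store calcium, had levels of 177 and 134 at ZT10 and ZT22 in sham+PSL, and 150 and 135 in ADX+PSL. Its ZT10 arrays were above its ZT22 arrays in both operations, with a log2 ratio of 0.40 ± 0.21 under sham+PSL and of 0.16 ± 0.21 under ADX+PSL.

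*Panx1*, the hemichannel that the study linked to ATP release from astrocytes, varied little. Its levels (chr9:14810250-14810309, mm9) were 3775 and 3969 at ZT10 and ZT22 in sham+PSL, and 3536 and 3843 in ADX+PSL, a range of 1.12-fold. The log2 ratios were -0.07 for ZT10 over ZT22 in sham+PSL, -0.12 in ADX+PSL, -0.09 for ADX+PSL over sham+PSL at ZT10 and -0.05 at ZT22. Each was smaller than the spot error of 0.20, and with 1 array per condition no difference could be tested. Within each operation the ZT10 level was below the ZT22 level, an order that was lost in sham+PSL without normalization between arrays, where the log2 ratio was 0.03.

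*Panx2*, a pannexin found mainly in neurons, had higher levels at ZT10 than at ZT22 in both operations and on both probes. The brighter probe had 1361 and 1039 at ZT10 and ZT22 in sham+PSL, and 1312 and 917 in ADX+PSL. The other probe (chr15:88899304-88899363), 884 bases away, had 539, 399, 470 and 375. Between ZT10 and ZT22 the first had log2 ratios of 0.39 ± 0.20 (sham+PSL) and 0.52 ± 0.20 (ADX+PSL), and the other had 0.43 ± 0.21 and 0.32 ± 0.21. The ratio of ADX+PSL to sham+PSL lay within the spot error at both times on both probes. No fold limit was passed, the largest time ratio being 1.43-fold.

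The connexins *Gja1* and *Gjb6* form the gap junctions and hemichannels of astrocytes. *Gja1* (chr10:56109814-56109873, mm9) had a level of 1405 and 1540 at ZT10 and ZT22 in sham+PSL, and 1493 and 1455 in ADX+PSL, a log2 range of 0.13. Its probe was printed 10 times on each array, which measures the error within an array directly. The SD of the log2 scanner signal between spots was 0.03 and 0.05 at ZT10 and ZT22 in sham+PSL, and 0.07 and 0.06 in ADX+PSL, below the spot error of 0.20 that the software gives a ratio. Before normalization the median spot was 1433, 1482, 1404 and 1519 in the same order, and the spots of every array overlapped with those of every other. Between the ADX+PSL time points its log2 ratio was 0.04 after normalization and -0.09 without it, so no order of the arrays is read from *Gja1*.

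**Figure D2:**
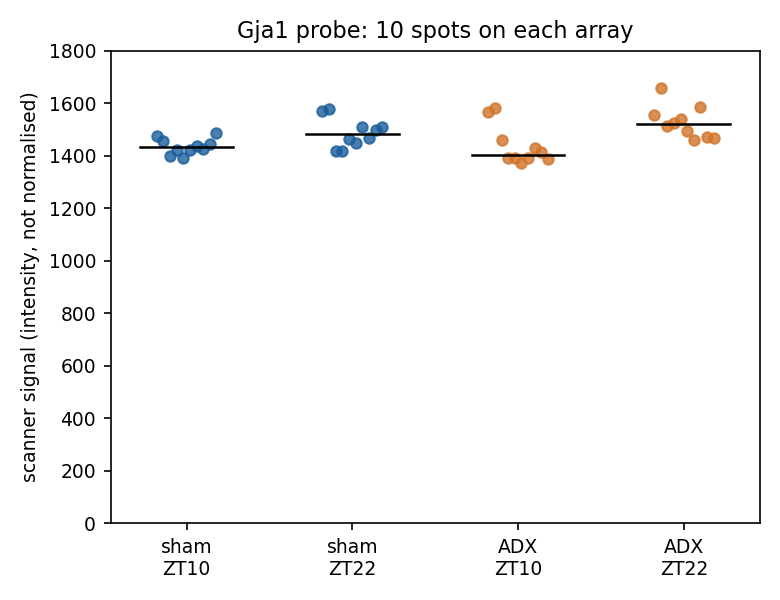
Scanner signal (intensity before normalisation between arrays, axis from 0) of the 10 spots of the *Gja1* probe on each of the 4 arrays, in blue for sham+PSL and in orange for ADX+PSL. Points are spots of 1 RNA and not replicates of a condition, and lines are medians, from 1404 to 1519, with all 4 arrays overlapping.

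*Gjb6* (chr14:57742226-57742285, mm9) had levels of 7203 and 6678 at ZT10 and ZT22 in sham+PSL, and 9859 and 6920 in ADX+PSL. The ADX+PSL array at ZT10 stood above the other 3, which lay close together. The log2 ratio was 0.51 ± 0.20 for ZT10 over ZT22 in ADX+PSL and 0.45 ± 0.20 for ADX+PSL over sham+PSL at ZT10, against 0.11 for the time points in sham+PSL and 0.05 for the operations at ZT22. The 12 markers of astrocytes, which were all well above background on every array, summed to 421766, 397180, 437517 and 383067 in the order of the arrays, with the highest sum also in ADX+PSL at ZT10. The largest term was *Aldoc*, with 206282, 180534, 218576 and 168269, which alone ranks the arrays as the sum does. The astrocyte filament gene *Gfap*, however, was lowest on that array, with levels of 15516, 17308, 8565 and 18028. Over the 12 markers the median log2 ratio was 0.13 between the time points in ADX+PSL and 0.01 between the operations at ZT10. Whether the astrocyte share of the slices has a part in the *Gjb6* value was not tested. In bulk tissue a different number of cells and a different amount of mRNA per cell cannot be told apart.

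The 3 members, *Stim2*, *Panx2* and *Gjb6*, were higher on both ZT10 arrays than on both ZT22 arrays, and *Panx1* was lower on both, an arrangement looked for after the values were seen. For *Panx1* it was lost without normalization between arrays and with normexp background correction. Over all probes measured on 4 arrays 18.2% were higher and 15.5% lower in this sense. The 3 genes do not share a role, as a store sensor, a neuronal pannexin and an astrocytic connexin.

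**Figure D3:**
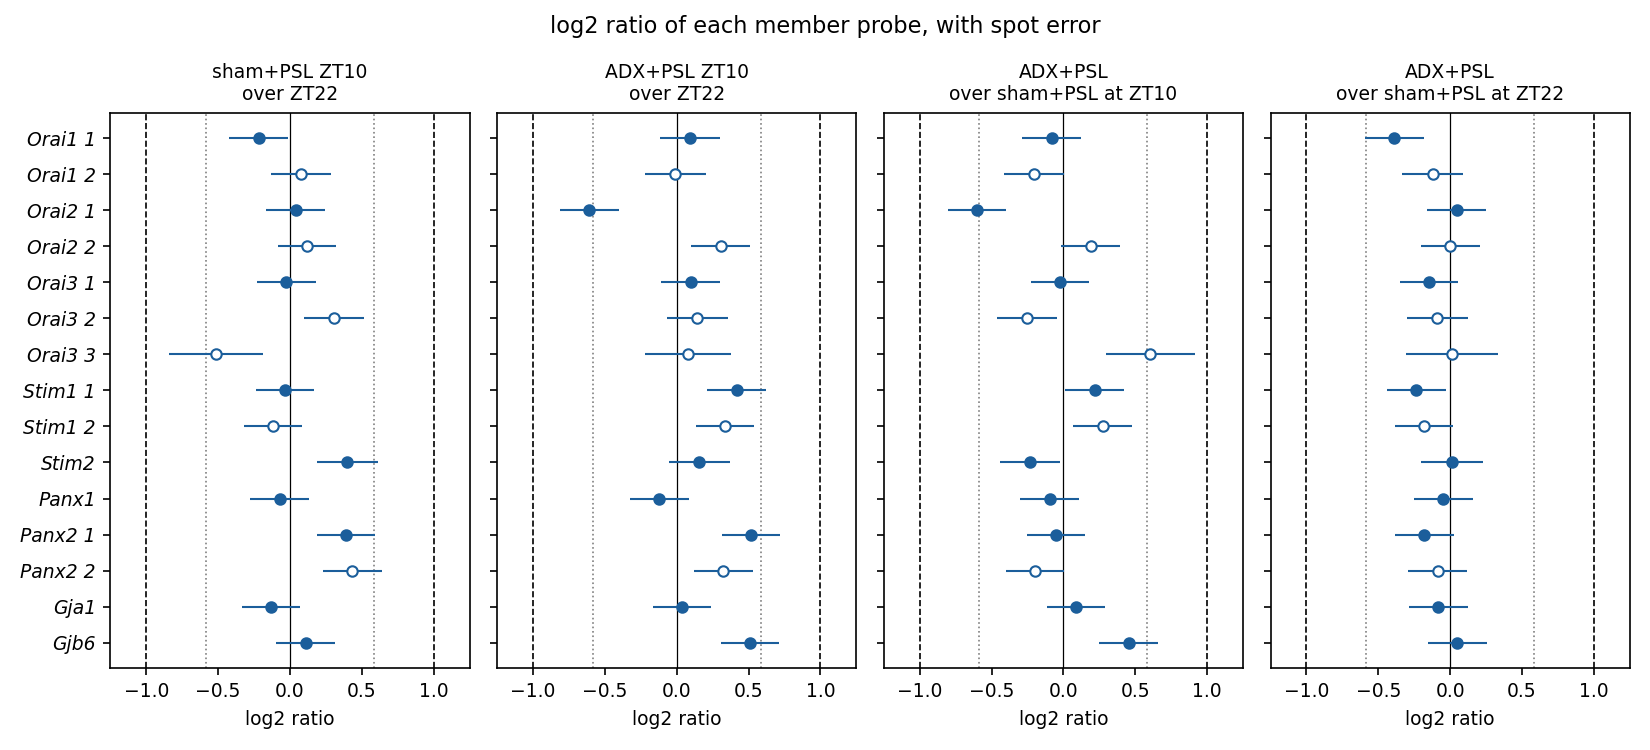
log2 ratio of the 15 member probes well above background in the 4 comparisons, with bars for the spot error. Filled symbols are the brightest probe of a gene and open symbols its other probes, dashed lines mark 2-fold and dotted lines 1.5-fold. No probe passes 2-fold, the brightest *Orai2* probe passes 1.5-fold downwards in 2 panels and the dimmest *Orai3* probe passes it upwards in 1.

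The promoters of 8 of the 10 genes were matched in the RefSeq table of GRCm38.p6, and *Panx2* and *Slc17a9* were not. Each window runs from 250 bases before to 50 after a start site and was searched on both strands. The TGTTCT core of the glucocorticoid response element was found in 0 of the 8 member promoters and in 19.0% of all 32851 promoters in the table. The full element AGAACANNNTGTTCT, which contains it, was also in none and in 0.00913% of all promoters. The D-box TTATGNAA, at 3.38% of all promoters, and the cAMP response element TGACGTCA, at 1.79%, were absent from the members' windows as well. The E-box CACGTG, bound by clock transcription factors, occurred among the members in the *Orai2* promoter alone, at 84 and 51 bases before the start site, against 7.15% of all promoters. The bases from -100 to -1 of that promoter are shown with the E-boxes in capitals, since *Orai2* had the widest range, although on 1 of its probes.
Orai2 promoter, chr5:136170657-136170756 (-, GRCm38.p6): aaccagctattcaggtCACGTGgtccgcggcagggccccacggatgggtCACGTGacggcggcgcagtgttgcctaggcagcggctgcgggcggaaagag
These are matches of letters in a short window, and say nothing about the binding of a factor. Elements outside the window are missed, so absence here does not class a gene as unresponsive to glucocorticoid.

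*Sgk1*, the glucocorticoid-induced kinase that the study placed upstream of ORAI1 and pannexin-1, is given beside the members. Its levels were 3889 and 1748 at ZT10 and ZT22 in sham+PSL, and 1836 and 1453 in ADX+PSL, so that the sham+PSL array at ZT10 stood apart from the other 3. The log2 ratio was 1.15 ± 0.20 between the time points in sham+PSL and 0.34 ± 0.20 in ADX+PSL. For ADX+PSL the study's table of candidate genes has *Sgk1* lower at ZT10 than at ZT22, the reverse of these levels. Its ADX+PSL ratios are also the reverse of these levels for the muscle genes *Tnnc2* and *Myl1*, the latter only 1.08-fold higher at ZT10 here. Its sham+PSL ratios of all these genes run as here. Which is right cannot be told, and the direction of every ADX+PSL time ratio here rests on the deposited sample labels. Among the members *Stim2* was also highest on the sham+PSL array at ZT10, by less, with a log2 ratio of 0.40 between the sham+PSL time points and -0.23 between the operations at ZT10. At ZT10, where *Sgk1* had a log2 ratio of -1.08 for ADX+PSL over sham+PSL, *Orai1* had -0.08 and *Panx1* had -0.09. For *Sgk1* 6 promoters were in the table, so more sequence was searched than for a member. Of these, 3 hold TGTTCT, and 1 of them holds the full element, 1 of 3 windows that do. From the start site it used, the study gave the element of *Sgk1* a position farther upstream than these windows reach from theirs. The primers it used around that element match bases of the window with the full element. The element shown may thus be the same one, counted from another start site. The bases from -250 to -151 of the window with the full element are shown with the element in capitals.
Sgk1 promoter, chr10:21993640-21993739 (+, GRCm38.p6): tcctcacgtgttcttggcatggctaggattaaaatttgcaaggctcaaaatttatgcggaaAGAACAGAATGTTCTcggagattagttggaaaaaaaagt
The glucocorticoid receptor gene *Nr3c1* had, on the brighter of its 2 probes, log2 ratios between time points of -0.33 (sham+PSL) and 0.00 (ADX+PSL). By PCR the study found no significant variation of this mRNA with time in sham+PSL mice. Between the operations the array ratios of this gene were 0.09 at ZT10 and -0.24 at ZT22. *Sgk2*, a relative of *Sgk1*, had levels of 1122, 1804, 1087 and 1150, with the sham+PSL array at ZT22 the highest and a log2 ratio of -0.69 between the time points in sham+PSL and -0.65 between the operations at ZT22.

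Other genes of ATP release were listed by function, and 27 of 41 could be compared between the sham+PSL arrays. By 1.5-fold, 2 were higher at ZT10 and 1 was lower, beside 2.69% and 3.80% of all probes. In ADX+PSL 1 of 25 was lower at ZT10, beside 3.24% of all probes. Between the operations at ZT10, 2 of 27 were higher in ADX+PSL and 3 lower, beside 3.31% and 3.72%. At ZT22, 2 of 25 were higher and 2 lower, beside 3.10% and 3.21%. The median log2 ratio over the list was between -0.10 and -0.03. *Lrrc8e*, a subunit of the volume-regulated anion channel, had levels of 1199 and 1580 at ZT10 and ZT22 in sham+PSL, and 2430 and 2217 in ADX+PSL. Both ADX+PSL arrays were above both sham+PSL arrays, with log2 ratios of 1.02 at ZT10 and 0.49 at ZT22, while its second probe was at background on every array. *Cftr*, a chloride channel, was dim and also higher in ADX+PSL, with levels of 28.5, 28.4, 48.3 and 51.9.

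*Gjb2*, a connexin of the meninges and of astrocytes, had levels of 873 and 1127 at ZT10 and ZT22 in sham+PSL, and 625 and 540 in ADX+PSL. Both ADX+PSL arrays were below both sham+PSL arrays, with a log2 ratio of -1.06 ± 0.20 at ZT22. Of 12 markers of meningeal fibroblasts, the 11 well above background on all arrays summed to 18971, 18145, 5790 and 5948 in the same order, and 10 of them were lower on both ADX+PSL arrays, so this list moves with *Gjb2*, and its part in the *Gjb2* value was not tested. *Slco2a1*, a prostaglandin transporter also described as part of a large anion channel, was dim, with levels of 33.9 and 59.3 in sham+PSL, and was not well above background in ADX+PSL at ZT22. Its log2 ratio between the operations at ZT10 was -0.63. *Abcb1b*, an efflux pump, had 208, 237, 175 and 155, with a log2 ratio of -0.62 between the operations at ZT22.

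*P2rx7*, an ATP-gated channel whose pore is also described as a route for ATP, changed order between the operations. Its brightest probe had levels of 464 and 301 at ZT10 and ZT22 in sham+PSL, and 230 and 563 in ADX+PSL, and its log2 ratio between ZT10 and ZT22 was 0.63 (sham+PSL) and -1.29 (ADX+PSL). A second probe, with levels of 65.6, 77.9, 53.0 and 66.0, had -0.25 and -0.32, so it did not show the reversal. *Gja5*, a connexin of vessels, had levels of 99.6, 62.2, 63.1 and 79.6, with a log2 ratio of 0.68 between the time points in sham+PSL and -0.66 between the operations at ZT10. Its second probe, with levels of 26.6, 27.4, 29.0 and 25.2, had -0.04 and 0.12.

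Of the other genes of store-operated calcium entry, 35 of 41 could be compared in sham+PSL, where 4 were higher at ZT10 by 1.5-fold and 0 lower, beside 2.69% and 3.80% of all probes. None of 34 passed in ADX+PSL and none of 35 between the operations at ZT10, and at ZT22 1 of 34 was higher and 1 lower, beside 3.10% and 3.21% of all probes. The median log2 ratio over the list was 0.08, -0.01, -0.05 and -0.03 in these comparisons. *Trpc4*, a cation channel, had levels of 183 and 110 at ZT10 and ZT22 in sham+PSL, and 179 and 192 in ADX+PSL. Its second probe had 174, 79.3, 148 and 136, so on both probes the sham+PSL array at ZT22 was the lowest, with log2 ratios between the sham+PSL time points of 0.73 and 1.13.

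The ryanodine receptor *Ryr1* had levels of 41.3, 25.7, 34.6 and 35.6, and the Golgi calcium pump *Atp2c2* had 39.5 and 22.1 in sham+PSL and 29.6 in ADX+PSL at ZT10, with log2 ratios between the sham+PSL time points of 0.68 and 0.84. The calcium pump *Atp2a1* had 148, 98.2, 103 and 94.0 and is a gene of fast muscle, as *Ryr1* is of skeletal muscle in general. The 5 of 10 skeletal muscle markers that were well above background on all arrays, *Atp2a1* among them, summed to 1909, 414, 341 and 333, and *Myh1* and *Mylpf* were not well above background on any array. Their part in the values of *Ryr1* and *Atp2a1* was not tested. *Efcab4a*, an EF-hand protein, had 114, 105, 83.6 and 69.9 on its brightest probe and a log2 ratio of -0.59 between the operations at ZT22, against 0.12 on its second.

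**Figure D4:**
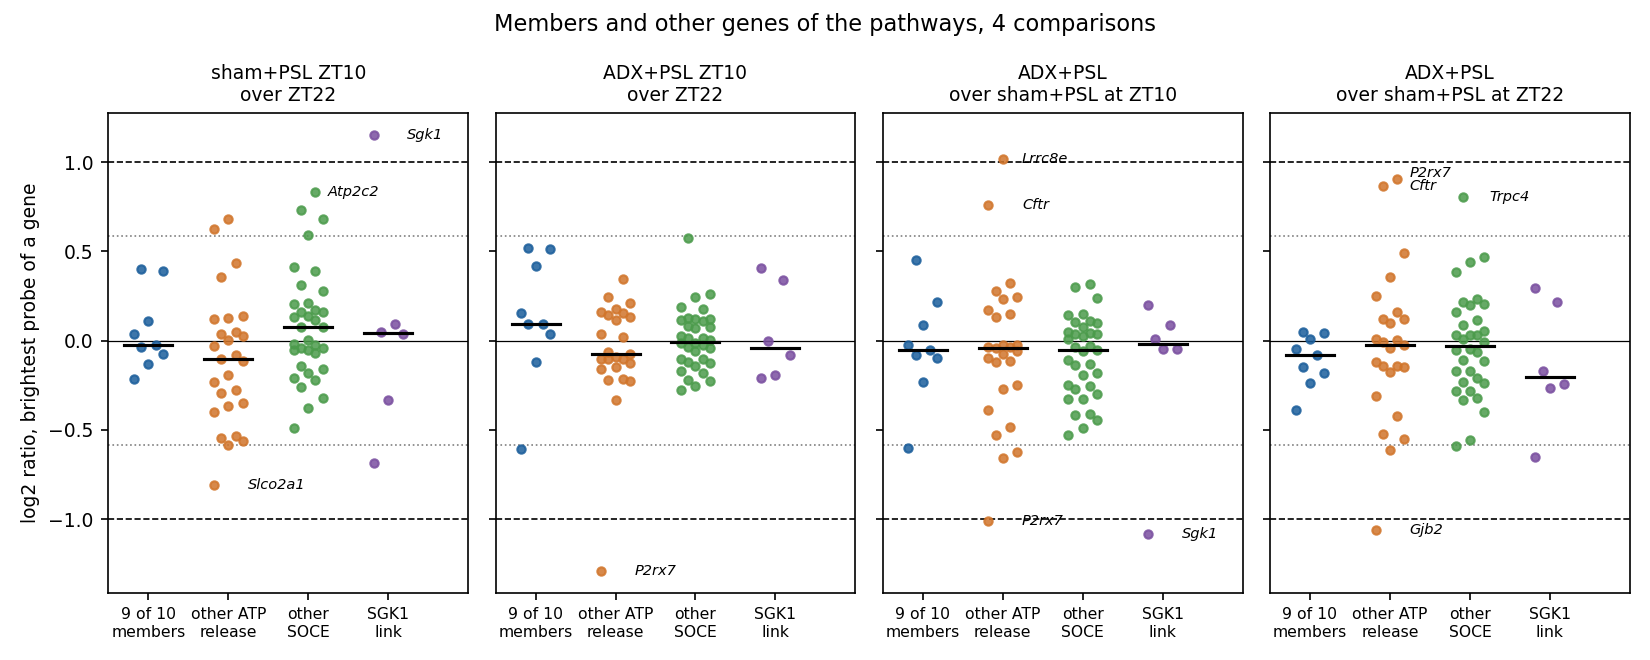
log2 ratio of the brightest probe of each gene in the 4 comparisons, for the 9 measured members, the other genes of ATP release, the other genes of store-operated calcium entry (SOCE) and *Sgk1* with 5 related genes. Each point is 1 gene, black bars are medians, dashed lines mark 2-fold and dotted lines 1.5-fold, and genes with a log2 ratio beyond 0.75 are named. The members stay inside 2-fold in every panel, and *Sgk1*, *P2rx7*, *Lrrc8e* and *Gjb2* reach beyond it in at least 1.

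The arrays differed in markers of other tissues. Between 65.1% and 70.1% of probes were well above background. The 6 of 8 red blood cell genes well above background on every array summed to between 18767 in sham+PSL at ZT22 and 135912 in sham+PSL at ZT10. Microglial markers were lower at ZT10 than at ZT22, with median log2 ratios of -0.44 (sham+PSL) and -0.34 (ADX+PSL) over 12 genes. They were also lower in ADX+PSL than in sham+PSL, with medians of -0.27 at ZT10 and -0.37 at ZT22, and 6 of the 12 were lower on both ADX+PSL arrays. *Itgam* at ZT10, with 0.21, and *P2ry12* at ZT10 and ZT22, with 0.05 and 0.01, were not lower. In the study the number of Iba1-positive microglia did not differ significantly between time points. Adrenalectomy had a negligible effect on their increase after ligation and, by PCR, on pain-related mRNAs of the ligated side. *Irf8* and *P2ry12* were among the mRNAs it measured. On the arrays *Irf8* had log2 ratios between the operations of -0.30 at ZT10 and -0.44 at ZT22. A count of cells and an mRNA level are different measures. Markers of neurons had medians between -0.04 and 0.17 and those of oligodendrocytes between -0.13 and 0.01, and 12 of 12 of each were well above background on every array. Endothelial markers, 10 of 10, had medians between -0.12 and 0.09. Of 8 Schwann cell markers 3 were well above background on all arrays, and these 3 summed to between 1234 and 1591. The part of these differences in the members' values was not tested.

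The probes nearest to 3 members in pattern show how common such patterns were. For *Panx1* the nearest named probes over the 4 arrays were those of *Pcdh15*, *Ece2* and *Lrrc48*, at distances of 0.015 to 0.018 between log2 levels centred on each probe's mean, and 28.6% of 25008 probes lay within 0.2. A flat pattern like that of *Panx1* was thus widespread. For *Orai1* they were *Nalcn*, *Mef2a* and *Rbm12*, with 8.01% within 0.2. For the brightest *Orai2* probe they were *Clptm1l*, *Ppm1j* and *Dennd1c*, at distances of 0.063 to 0.083, with 0.460% within 0.2.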

How the data were processed

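Spinal RNA of 4 conditions was labelled with Cy3 and hybridized to 60-base probe arrays, 1 array each, on 1 slide. The authors deposited the spot intensities of Agilent Feature Extraction (version 10.7.1.1 in the file headers, 9.5.1.1 in the submitters' processing notes) and a table of linear intensities, with quantile normalization across arrays and 1 value per probe, which was used here as the level. Each table column correlated with its scanner signal at r of 0.9994 or more. Flags and spot errors came from the scanner files. Ratios were formed between probes well above background on both arrays, and a fold limit of 2.0 or 1.5 was applied. Alternatives were quantile, pairwise quantile, 75th percentile and no normalization of the scanner signal, normexp (offset 50), other filters, a Z-score and the mean over a gene's probes. R 4.3.3 with limma 3.58.1 and Python 3.11.15 were used, and the steps were tested on simulated data.

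The members and lists were chosen with earlier results of these data known. Named were all members, pathway genes past 1.5-fold (at most 6 in a comparison), *Sgk1*, and the 3 probes nearest to *Panx1*, *Orai1* and the widest-ranging member. *Atp2a1*, *Efcab4a* and *Nr3c1* were named after their values were seen. Probe coordinates are the deposited mm9 ones. Exon and UTR positions were not analysed here.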

Additional observations from a re-analysis of the deposited data

Results flagged for a closer look

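*P2rx7* had log2 ratios of ZT10 to ZT22 of opposite sign in the 2 operations, each past 1.5-fold, on its brightest probe. The ratio in sham+PSL exceeded that in ADX+PSL by 1.92 on the log2 scale, a difference that was not tested, with 1 array per condition. The levels were 464 and 301 at ZT10 and ZT22 in sham+PSL, and 230 and 563 in ADX+PSL. It was the 1 gene of 74 looked at in these pathways with such a reversal, which 0.488% of the probes measured on all 4 arrays showed. A second *P2rx7* probe, with levels of 65.6, 77.9, 53.0 and 66.0, did not show it. Another probe, well above background on 2 arrays, had levels of 36.1, 16.0, 13.9 and 36.5, in the same rank order as the brightest. In the PCR of the study this mRNA did not vary significantly with time in sham+PSL mice.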

How the results depend on the processing

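Of 216 member ratios recomputed under 6 alternatives each, 214 moved by less than the spot error. The exceptions were those of *Orai2* with the mean over both probes, at -0.15 between the time points in ADX+PSL and -0.21 between the operations at ZT10. The other sign appeared in 11, none of them among the ratios of 0.3 or more on the log2 scale. Without normalization between arrays the median of all probes shifted to -0.10 between the time points in ADX+PSL and to 0.13 between the operations at ZT22, so member ratios under it are relative to these. The median over the members then also changed sign, to 0.06 and -0.01 between the time points in sham+PSL and ADX+PSL and to 0.04 between the operations at ZT22. *Orai1* and *Orai3* were lower on both ADX+PSL arrays under every scaling, joined by *Panx1* with normexp, which gave 3 members. No alternative put a member past 2-fold. The counts of all probes past the limit, 515 and 391 between the time points in sham+PSL and ADX+PSL and 555 and 450 between the operations at ZT10 and ZT22, became 198, 125, 195 and 150 with normexp, 1446, 1199, 1585 and 1290 with the background filter on the brighter array alone, and 1675, 1311, 1856 and 1587 at 1.5-fold. No paired analysis was possible because each condition had 1 array, and none could be left out.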
